A study of Homo sapiens with 6 samples.

Results

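The genes that encode the proteasome and its partners were examined in SKOV3 cells, a long-established line from a human ovarian cancer. Members were chosen by gene symbol alone, as every row of the deposited gene table named PSMA, PSMB, PSMC, PSMD, PSME, PSMF or PSMG followed by digits only. This gave 50 of the 57905 rows, covering 48 symbols, because PSMA1 and PSMA2 each had a second, nearly empty row. The 3 libraries of SKOV3 cells with an shRNA against CPT1A, labelled CPT1Ash, were compared with 3 libraries of SKOV3 control cells, labelled WT. Both groups were in normal culture, and CPT1A is the enzyme of the outer mitochondrial membrane through which long-chain fatty acids enter oxidation. The labels mention no control hairpin and do not name the hairpin sequence or its vector, and they do not say whether the shRNA cells were 1 clone. All 3 shRNA libraries carry the tag sh2 in their column headers, which the labels do not explain. Other effects of the shRNA and effects of lower CPT1A cannot be told apart. They call the libraries of a group biological replicates and leave unsaid if each had its own introduction of the shRNA, so p-values measure the spread between these libraries. RNA came from whole cultures, so a lower level in every cell and loss of RNA in some of the cells cannot be told apart.

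The proteasome is the barrel-shaped protease that degrades most short-lived and damaged proteins after they are marked with ubiquitin. Its core particle stacks rings of alpha subunits (PSMA genes), which gate the entrance, around rings of beta subunits (PSMB genes), of which PSMB5, PSMB6 and PSMB7 carry the cutting sites. A regulatory particle sits on the ends of the core: its base unfolds substrates with ATPases (PSMC genes) and its lid (most PSMD genes) removes ubiquitin. In the immunoproteasome, which interferon-gamma induces in many cell types, PSMB8, PSMB9 and PSMB10 take the places of PSMB5, PSMB6 and PSMB7, and the cap made of PSME1 and PSME2 can replace the regulatory particle. This form is best known for cutting proteins into peptides suited to presentation on HLA class I.

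Libraries held 15740143 to 22271565 counts over annotated genes. Levels are given in FPKM (fragments per kilobase of a gene's exonic length, scaled by library size), so the order between genes depends on that length. CPT1A had 2.16, 2.00 and 1.96 FPKM in the shRNA libraries, against 6.70, 8.06 and 8.0 FPKM in the control libraries. The fitted decrease was 3.91-fold (edgeR adjusted p = 3.3e-06). On the first principal component of log2 CPM, with 64.7% of the variance, the shRNA libraries lay at 24.5 to 30.1, and control replicate 2 lay at -15.1 against -33.0 and -33.7 for the other controls. Of the SKOV3 and epithelial markers checked, 8 of 9 reached the expression minimum, with MUC16 at 0.03 FPKM or less in every library. KRT19, KRT7, KRT8 and PAX8 were called lower in the shRNA libraries (50% of the 8, beside 13.7% of all tested genes). EPCAM, KRT18, CDH1 and ERBB2 were not called (log2 changes of -0.31, -0.12, -0.09 and 0.19). The summed level of all 9 markers was 1100 to 1262 FPKM in shRNA libraries and 1611 to 1971 FPKM in control libraries. All 5 immune markers were below 1 FPKM in every library, with CD3E at 0. Their summed level was 0.70 to 0.92 FPKM in shRNA libraries and 0.89 to 1.38 FPKM in control libraries. No fibroblast or endothelial marker reached the expression minimum. The fibroblast sum was 0.10 to 0.28 FPKM in shRNA libraries and 0.83 to 1.25 FPKM in control libraries. Most of it was LUM alone, with 0.21, 0.13 and 0.09 FPKM in shRNA libraries, against 0.96, 1.0 and 0.64 FPKM in control libraries. The endothelial sum, of VWF and CDH5, was 0.01 to 0.03 FPKM in shRNA libraries and 0.03 to 0.05 FPKM in control libraries. The part of these differences in the results that follow was not tested.

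Of the 50 rows, 46 reached the expression minimum (1 FPKM or more in any 3 of the 6 libraries) and were tested. The second rows of PSMA1 and PSMA2 held 0 and 5 counts over all libraries. PSMA8, a core subunit of the testis, and PSMB11, one of the thymus, had no count in any library. Of the 46 tested genes, 16 (34.8%) were called at an edgeR adjusted p under 0.05, beside 27.4% of all 12784 tested genes. The direction was uneven: 3 were higher in the shRNA libraries, where the background was 13.8% of tested genes, and 13 were lower, where it was 13.7%. The groups did not overlap for 22 of the 46, beside 42.6% of all tested genes. The median fitted log2 change was -0.11 over the 46 genes and -0.01 over all tested genes. Members outside the immunoproteasome group were called at 11 of 41 (26.8%), close to the background share. Among the 16 called genes, 9 differed by 1.5-fold or more, all of them lower, and PSMA3, PSMA4 and PSMB9 by 2-fold or more. Single libraries moved these counts. Without control replicate 1, 7 members (and 1882 of all genes) were called. The counts were 9 (and 2060) without shRNA replicate 2 and 10 (and 2634) without shRNA replicate 3. No member was called higher in any of these 3 fits.

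**Figure D1:**
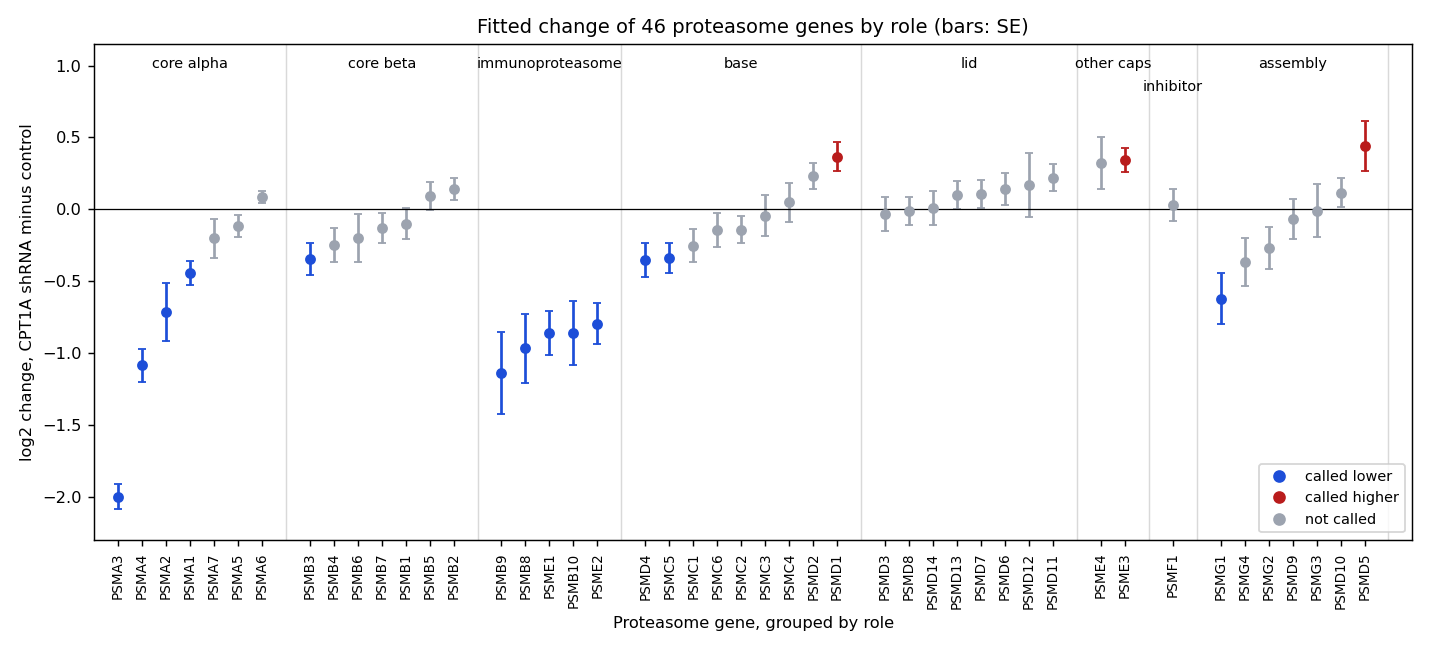
Fitted log2 change (CPT1A shRNA minus control, vertical axis, bars show SE) of the 46 tested proteasome genes, grouped by role along the horizontal axis and coloured by call. All 5 immunoproteasome genes and 4 of 7 core alpha genes lie among the called decreases, and none of the 8 lid genes plotted is called.

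The core alpha group held the largest decrease of any member. Of its 7 genes, 4 (57.1%) were called lower (PSMA1, PSMA2, PSMA3 and PSMA4), beside 13.7% of all tested genes, and none higher. The group median log2 change was -0.45, and without control replicate 1, PSMA3 and PSMA4 were the 2 that passed. PSMA3, an alpha-ring subunit, had 11.7, 9.88 and 9.82 FPKM in the shRNA libraries, against 40.9, 41.4 and 37.7 FPKM in the control libraries. The groups were far apart and each was tight. The decrease was 4.01-fold, a log2 change of -2.0 ± 0.09 (SE; edgeR adjusted p = 1.33e-06), and it ranked 30 of 12784 tested genes from the largest decrease. These levels rested on 688, 485 and 577 counts in the shRNA libraries, against 2331, 2878 and 2257 counts in the control libraries. The authors' table places PSMA3 on the plus strand of chromosome 14, 58711549 to 58738730. The tested genes whose spans overlap it, C14orf37 and RP11-349A22.5, both on the opposite strand, were not called (log2 changes of 0.31 and -0.33, edgeR adjusted p = 0.203 and 0.280).

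PSMA4, also of the alpha ring, had 40.1, 40.2 and 47.6 FPKM in the shRNA libraries, against 92.6, 88.8 and 77.2 FPKM in the control libraries. The lowest control library stood well above the highest shRNA library, and the decrease was 2.12-fold, a log2 change of -1.09 ± 0.11 (SE; edgeR adjusted p = 5.57e-05). The authors' table places PSMA4 on chromosome 15, 78832747 to 78841604. PSMA1 had 39.6, 44.9 and 46.2 FPKM in shRNA libraries, against 58.9, 57.2 and 53.4 FPKM in control libraries. Its groups were also apart, but by a smaller step of 1.36-fold (edgeR adjusted p = 0.00837), and without control replicate 1 the call was lost (edgeR adjusted p = 0.0589). The gene COPB1, which overlaps PSMA1 on the same strand, had a log2 change of -0.15 and was not called.

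PSMA2 was the lowest core subunit on the FPKM scale, with 2.26, 2.54 and 3.29 FPKM in shRNA libraries, against 4.90, 4.05 and 3.69 FPKM in control libraries. The groups were apart by a narrow gap, with a log2 change of -0.71 ± 0.20 (SE; edgeR adjusted p = 0.0117), and the call was lost when shRNA replicate 1, shRNA replicate 2 or control replicate 1 was left out (edgeR adjusted p of up to 0.0828). PSMA2 overlaps MRPL32, a mitochondrial ribosome gene on the opposite strand that was also called lower (log2 change of -0.44, edgeR adjusted p = 0.0373). Because no strand setting is given, fragments from the overlap cannot be assigned to either gene.

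The remaining alpha genes were not called. PSMA6 had 25.6, 26.5 and 26.4 FPKM in shRNA libraries, against 22.4, 24.0 and 24.2 FPKM in control libraries (log2 change 0.08, edgeR adjusted p = 0.575). PSMA7 was the most abundant member on the FPKM scale in both groups. It had 263, 276 and 277 FPKM in shRNA libraries, against 309, 253 and 330 FPKM in control libraries (log2 change -0.20, edgeR adjusted p = 0.224). PSMA5 had 46.2 ± 1.2 FPKM in shRNA libraries and 47.6 ± 2.7 FPKM in control libraries (SD, n = 3 each; edgeR adjusted p = 0.425). None of these 3 passed the test, and PSMA5 and PSMA7 overlapped between groups. Without control replicate 2, PSMA7 was called lower (log2 change -0.33, edgeR adjusted p = 0.0116).

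**Figure D2:**
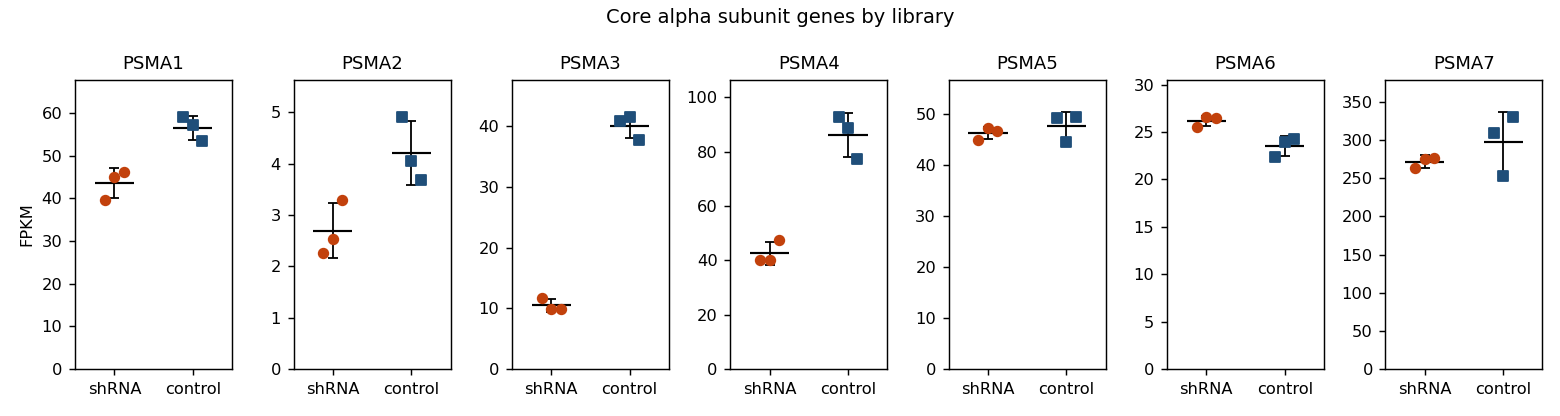
FPKM of the 7 core alpha genes in each library (vertical axes from 0, a separate scale per gene), shRNA libraries as circles left of control libraries as squares, with the group mean as a line and SD as bars. PSMA1 to PSMA4 are lower in all 3 shRNA libraries, with PSMA3 at 9.82 to 11.7 FPKM against 37.7 to 41.4 FPKM in control libraries, while PSMA5 and PSMA7 overlap.

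Within the core, whose subunits are built into the particle in equal number, PSMA3 was compared with the median FPKM of the other 13 core subunits of the same library. This ratio was 0.124, 0.102 and 0.101 in the shRNA libraries, against 0.446, 0.506 and 0.436 in the control libraries, 4.25-fold lower. By exact two-sided permutation this difference had p = 0.1, the minimum for 3 against 3 libraries. Most other core subunits reached the same minimum in their own ratios, in either direction, so this p does not set PSMA3 apart. PSMA5, PSMA7, PSMB1, PSMB5 and PSMB7, none of them called, were among them. In the order of FPKM levels among the 46 tested members, PSMA3 stood at place 41 in shRNA libraries and 25 in control libraries, and PSMA4 at place 23 in shRNA libraries and 12 in control libraries. The top 5 places were the same genes in both groups, namely PSMA7, PSMB4, PSMB3, PSMB1 and PSMB7. PSMB4 and PSMB3 were at 219.5 ± 25 and 211 ± 22 FPKM in control libraries (SD over libraries). PSMB4 was above PSMB3 in every library of both groups.

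PSMA3 and PSMA4 transcripts share the 7-base word TGTCCAA in their 3′ UTRs. The words ATGTCCA and TGTCCAA were picked in an earlier analysis of these libraries because of how their genes had moved, so their presence is a description only. Among tested members with a 3′ UTR in GENCODE 29, the words occurred in 2 of 12 called lower, 0 of 3 called higher and 2 of 30 not called. Over all tested genes they occurred in 23.1% of those called lower (352 of 1522), 15.6% of those called higher (247 of 1586) and 15.1% of those not called (1154 of 7660). The word, in capitals within its surroundings, is shown for the 2 members that fell most among the alpha genes and a word of the pair for the 2 uncalled members that hold one. It begins at base 78 of the 117-base 3′ UTR of PSMA3, at base 144 of 3475 in PSMA4, at base 2144 of 2982 in PSMA5 and at base 2352 of 2566 in PSMD11.
PSMA3: attatacatacTGTCCAAttttcattaaa
PSMA4: cttgtcatttcTGTCCAAttgaatacttt
PSMA5: ggtgaaatcttATGTCCAgtatctcacaa
PSMD11: tagacccgtgcTGTCCAAtatgtagccgc
PSMA3, PSMA4 and PSMD11 hold TGTCCAA, and PSMA5 holds ATGTCCA. PSMD11, a lid subunit, was not called. The part of TGTCCAA in the decreases was not tested.

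Of the 7 core beta genes, 1 was called (14.3%, beside 27.4% of all tested genes), the structural subunit PSMB3. The group median log2 change was -0.13. Without control replicate 2 the median was -0.23, and PSMB4, another structural subunit (log2 change -0.36, edgeR adjusted p = 0.00482), and PSMB6 were called lower as well. PSMB3 had 178, 173 and 174 FPKM in shRNA libraries, against 222, 186 and 226 FPKM in control libraries, 1.27-fold lower (log2 change -0.34 ± 0.11 SE, edgeR adjusted p = 0.0393). It kept its call under 5 of 14 other settings. At the other end of the group, PSMB2 had 94.9, 96.6 and 97.1 FPKM in shRNA libraries, against 85.1, 76.8 and 86.6 FPKM in control libraries. These groups were apart, yet the log2 change of 0.14 ± 0.08 (SE) did not pass the test (edgeR adjusted p = 0.329). Control replicate 2 was the lowest control library for all 7 beta genes and for 26 of the 46 tested members. The summed level was 932 ± 14 FPKM in shRNA libraries and 984 ± 98 FPKM in control libraries for the beta genes, and 444 ± 15 FPKM in shRNA libraries and 555 ± 37 FPKM in control libraries for the alpha genes (SD, n = 3 each).

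The catalytic subunits of the constitutive core were not called with all libraries. PSMB5, which cuts after hydrophobic residues, had 98.2, 104 and 102 FPKM in shRNA libraries, against 91.7, 81.9 and 98.1 FPKM in control libraries (log2 change 0.09 ± 0.10 SE, edgeR adjusted p = 0.574). PSMB6, which cuts after acidic residues, had 57.7, 60.0 and 58.8 FPKM in shRNA libraries, against 68.9, 51.9 and 71.9 FPKM in control libraries (log2 change -0.20 ± 0.17 SE, edgeR adjusted p = 0.311). PSMB7, which cuts after basic residues, had 141, 145 and 148 FPKM in shRNA libraries, against 157, 134 and 160 FPKM in control libraries (log2 change -0.13 ± 0.10 SE, edgeR adjusted p = 0.405). In PSMB6 and PSMB7 control replicate 2 lay below all shRNA libraries and the other control libraries lay above them. Without that library PSMB6 was called lower (log2 change -0.35, edgeR adjusted p = 0.0143) and PSMB7 was not (log2 change -0.23, edgeR adjusted p = 0.054).

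All 5 genes of the immunoproteasome group fell in the shRNA libraries, and for each of them every shRNA library was below every control library. Among all tested genes 13.7% were called lower, and 42.6% had groups that did not overlap, in either direction. The group median log2 change was -0.86. PSMB8, which takes the place of PSMB5, had 43.0, 32.5 and 25.6 FPKM in shRNA libraries, against 63.2, 55.3 and 69.4 FPKM in control libraries. It was 1.96-fold lower (log2 change -0.97 ± 0.24 SE, edgeR adjusted p = 0.00137). PSMB9, which takes the place of PSMB6, had 5.84, 3.50 and 3.75 FPKM in shRNA libraries, against 8.65, 7.70 and 11.1 FPKM in control libraries. It was the least abundant of the group and the most lowered, at 2.20-fold (log2 change -1.14 ± 0.28 SE, edgeR adjusted p = 0.00199). PSMB10, which takes the place of PSMB7, had 21.1, 14.9 and 14.0 FPKM in shRNA libraries, against 29.5, 24.6 and 32.2 FPKM in control libraries. The difference was 1.82-fold (log2 change -0.86 ± 0.23 SE, edgeR adjusted p = 0.00312).

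PSME1 and PSME2, whose products form the activator cap that interferon-gamma induces, fell as well. PSME1 had 61.6, 55.1 and 47.6 FPKM in shRNA libraries, against 102, 82.6 and 98.8 FPKM in control libraries, 1.82-fold lower (log2 change -0.86 ± 0.16 SE, edgeR adjusted p = 0.000542). PSME2 had 11.7, 10.6 and 10.8 FPKM in shRNA libraries, against 20.6, 15.5 and 18.5 FPKM in control libraries, 1.74-fold lower (log2 change -0.80 ± 0.15 SE, edgeR adjusted p = 0.00142). Summed over the 5 genes, the level was 143, 116 and 102 FPKM in shRNA libraries, against 224, 186 and 230 FPKM in control libraries. The shRNA libraries were not alike: replicate 1 was the highest of them for all 5 genes, and control replicate 2 was the lowest control for all 5. Without shRNA replicate 1 the group median was -1.07. These 5 genes, with PSMA3 and PSMA4, were the members that kept their call under every setting tried. PSMB8 and PSMB9 lie next to each other in the HLA region of chromosome 6 on opposite strands. Their spans overlap, so reads from the overlap cannot be assigned to either. The PSMB9 span also overlapped TAP1 on the opposite strand, which was not called (11897 counts over all libraries, against 2388 for PSMB9). TAPSAR1 overlapped both PSMB8 and PSMB9 and was not called (log2 change -0.63, edgeR adjusted p = 0.0535).

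**Figure D3:**
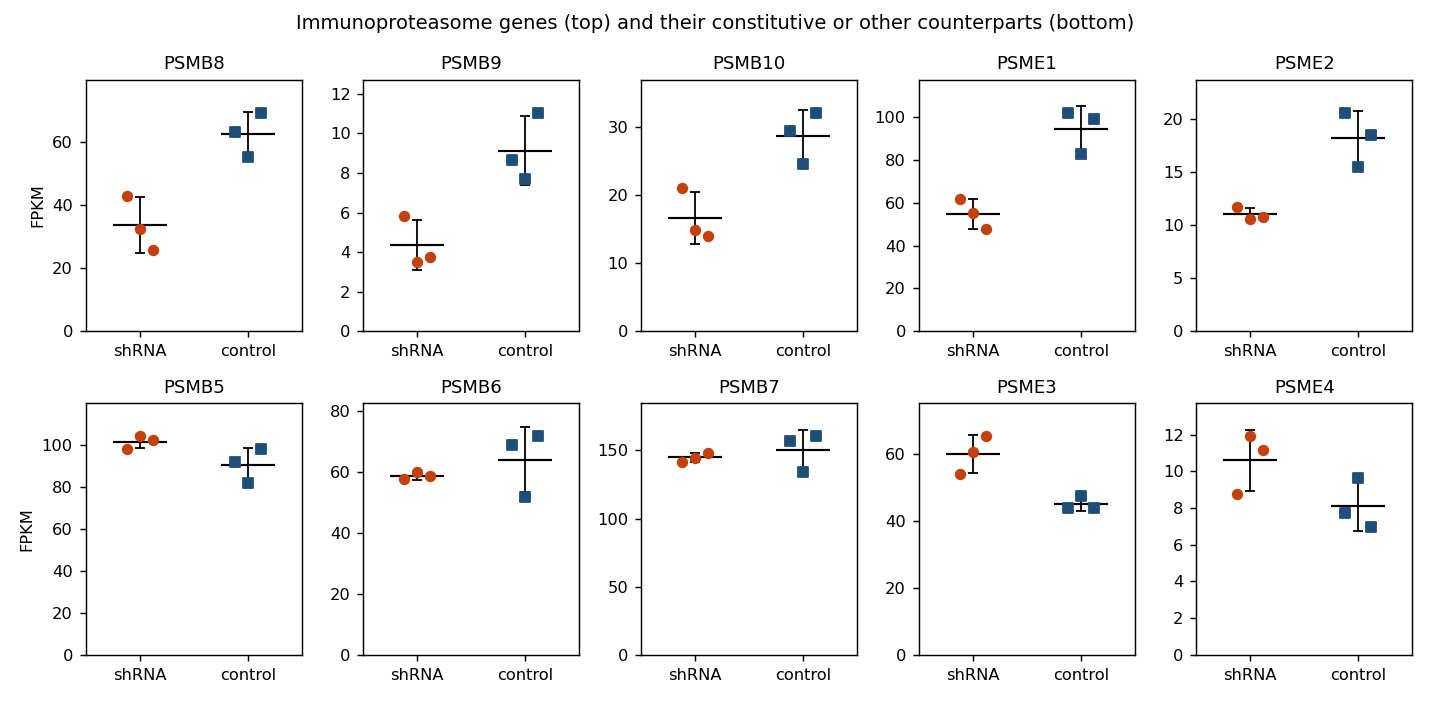
FPKM in each library (vertical axes from 0, a separate scale per gene) of PSMB8, PSMB9, PSMB10, PSME1 and PSME2, with shRNA libraries as circles left of control libraries as squares, the group mean as a line and SD as bars. Each gene's 3 shRNA libraries lie below its 3 control libraries, and shRNA replicate 1, the leftmost circle, is the highest of the shRNA libraries for all 5.

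The balance between the exchangeable catalytic subunits was read as a ratio of FPKM within each library, in which depth cancels. PSMB8 to PSMB5 was 0.438, 0.312 and 0.250 in shRNA libraries, against 0.689, 0.675 and 0.707 in control libraries, 2.13-fold lower (log2 difference -1.09 ± 0.24 SE). PSMB9 to PSMB6 was 0.101, 0.0583 and 0.0638 in shRNA libraries, against 0.126, 0.148 and 0.154 in control libraries, 1.97-fold lower (log2 difference -0.98 ± 0.26 SE). PSMB10 to PSMB7 was 0.150, 0.103 and 0.0947 in shRNA libraries, against 0.188, 0.183 and 0.201 in control libraries, 1.68-fold lower (log2 difference -0.75 ± 0.21 SE). Constitutive transcripts were the more abundant in every pair and library, in FPKM and also in counts. For all 3 pairs the ratio was lower in every shRNA library. Each exact two-sided permutation p was 0.1, again the minimum for this design. The control libraries lay between 0.675 and 0.707 for PSMB8 to PSMB5, although control replicate 2 was the lowest control in each gene alone.

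**Figure D4:**
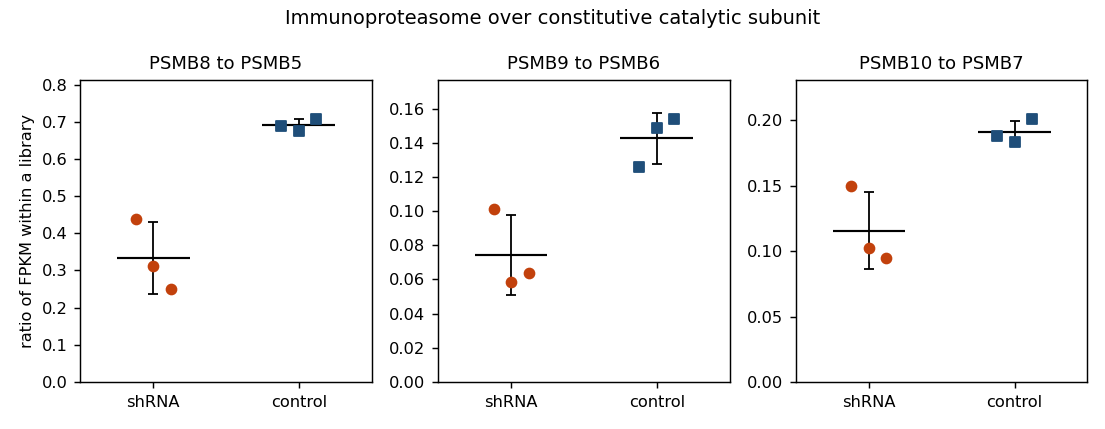
Ratio of FPKM of each immunoproteasome subunit to its constitutive partner within a library (vertical axes from 0), shRNA libraries as circles left of control libraries as squares, with mean and SD. For PSMB8 to PSMB5 the shRNA libraries lie at 0.250 to 0.438 and the control libraries at 0.675 to 0.707, and the groups are apart for all 3 pairs.

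Among the other caps, 1 of 2 genes was called, where the share over all tested genes was 27.4%. PSME3, which makes the nuclear relative of the PSME1 and PSME2 cap, was higher in the shRNA libraries, with 54.1, 60.8 and 65.4 FPKM there, against 43.9, 47.6 and 43.9 FPKM in control libraries. The increase was 1.27-fold (log2 change 0.34 ± 0.09 SE, edgeR adjusted p = 0.0297), and the call was lost with the replicate number as a block and on leaving out shRNA replicate 2 or 3 or control replicate 1 (edgeR adjusted p of up to 0.135). The ratio of PSME1 to PSME3 was 1.14, 0.906 and 0.727 in shRNA libraries, against 2.32, 1.74 and 2.25 in control libraries (log2 difference -1.20 ± 0.23 SE, exact two-sided permutation p = 0.1). On the FPKM scale PSME1 was thus above PSME3 in every control library and in 1 of the 3 shRNA libraries. The exonic lengths used were 1781 bases for PSME1 and 4894 bases for PSME3, and in counts PSME3 was the higher in every library. PSME4, a large nuclear cap, had 8.74, 11.9 and 11.1 FPKM in shRNA libraries, against 7.72, 9.62 and 6.96 FPKM in control libraries (log2 change 0.32 ± 0.18 SE, edgeR adjusted p = 0.118). PSMF1, a protein that binds and inhibits the core, had 34.0, 33.1 and 32.2 FPKM in shRNA libraries, against 32.3, 27.1 and 33.0 FPKM in control libraries (log2 change 0.03, edgeR adjusted p = 0.882). Neither PSME4 nor PSMF1 passed the test, and both overlapped between groups. PSME4 was called higher without shRNA replicate 1 or without control replicate 2 (log2 change 0.44 in each).

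Promoters of the immunoproteasome group are shown because they share a sequence. RefSeq promoters on GRCh38.p14 (250 bases before to 50 bases after the start) were matched by symbol for 42 of the 48 members. On either strand, the interferon response element core (GAAA, any 2 bases, GAAA) was found in 7 of 42 members (16.7%), beside 4.38% of all 27305 genes with a promoter. Of the immunoproteasome group 4 of 5 held it, and PSMB9 did not hold it in its window. The other 3 holders were PSMA4 (of 6 core alpha genes with a promoter), PSMB4 (of 4 core beta genes) and PSMG4 (of 6 assembly genes), and none was found among 8 lid and 8 base genes. In all 4 the letters were the same, GAAAGCGAAA or its reverse complement. The match, in capitals, is given with its flanks, 5′ to 3′ on the gene's strand, for the windows PSMB8 chr6:32843998-32844297 (minus), PSMB10 chr16:67936801-67937100 (minus), PSME1 chr14:24135944-24136243 (plus) and PSME2 chr14:24146561-24146860 (minus).
PSMB8: tctgtggcTTTCGCTTTCacttcctc
PSMB10: gtaaaggcGAAAGCGAAAgcaggaag
PSME1: cctaccgcTTTCGCTTTCccttcgcg
PSME2: tggggagtGAAAGCGAAAgcccgggc
The match began 4 bases before the start in PSMB8, 21 before it in PSMB10, 28 before it in PSME2 and 5 bases after it in PSME1, each within the windows shown. RefSeq lists a second start for PSMB8, with the window chr6:32844630-32844929 (minus), in which none of the motifs searched was found. The whole windows of PSMB10 and PSME1 follow, with the same element in capitals. In PSME1 the earlier capitals mark the core of an antioxidant response element, the sequence bound by the NFE2L2 and NFE2L1 factors.
PSMB10: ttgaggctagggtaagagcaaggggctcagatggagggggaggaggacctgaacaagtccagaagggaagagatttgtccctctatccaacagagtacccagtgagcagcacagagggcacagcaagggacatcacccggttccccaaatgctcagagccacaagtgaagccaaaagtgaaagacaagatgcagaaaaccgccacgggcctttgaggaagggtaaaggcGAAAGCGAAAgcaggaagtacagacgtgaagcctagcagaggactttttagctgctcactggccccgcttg
PSME1: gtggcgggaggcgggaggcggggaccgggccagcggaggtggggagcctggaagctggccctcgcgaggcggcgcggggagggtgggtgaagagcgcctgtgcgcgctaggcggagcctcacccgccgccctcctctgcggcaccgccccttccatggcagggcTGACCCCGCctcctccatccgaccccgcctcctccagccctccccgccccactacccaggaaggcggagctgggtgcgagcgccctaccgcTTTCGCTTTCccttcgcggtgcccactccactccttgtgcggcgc
That antioxidant core, TGACNNNGC, was found in 15 of 42 members (35.7%), beside 16.1% of all genes, and it was present in 7 of 12 members called lower, 2 of 3 called higher and 6 of 25 tested but not called. The interferon-gamma activated sequence TTCNNNGAA was found in 8 of 42 members (19.0%), beside 9.38% of all genes, and of the immunoproteasome group PSMB8 alone held it. CCAAT was found in 20 of 42 (47.6%), beside 39.7% of all genes. It was present in 7 of 12 members called lower, 1 of 3 called higher and 11 of 25 not called. The interferon response element was in 5 members called lower and 2 not called, and TTCNNNGAA in 2 lower, 1 higher and 4 not called. No such split by call was made over all genes. A match describes the letters of a window and no binding was measured.

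The base of the regulatory particle held small changes in both directions. Of its 9 genes, 1 was called higher and 2 lower (33.3% called, beside 27.4% of all tested genes). The group median log2 change was -0.14. PSMD1, a scaffold of the base, had 61.8, 72.9 and 76.0 FPKM in shRNA libraries, against 52.0, 55.2 and 48.7 FPKM in control libraries, 1.29-fold higher (log2 change 0.36 ± 0.10 SE, edgeR adjusted p = 0.0257). PSMD4, a receptor for ubiquitin chains, had 81.3, 78.6 and 81.0 FPKM in shRNA libraries, against 102, 85.0 and 106 FPKM in control libraries (log2 change -0.35 ± 0.12 SE, edgeR adjusted p = 0.0373). PSMC5, an ATPase of the ring, had 54.2, 57.5 and 59.6 FPKM in shRNA libraries, against 70.6, 62.1 and 73.3 FPKM in control libraries (log2 change -0.34 ± 0.10 SE, edgeR adjusted p = 0.0371). All 3 had groups that did not overlap, and for PSMC5 and PSMD4 the control library nearest to the shRNA libraries was replicate 2. The calls of PSMC5 and PSMD4 held under 5 of 14 other settings each, and that of PSMD1 was lost without shRNA replicate 2, shRNA replicate 3 or control replicate 1 (edgeR adjusted p of up to 0.131). The other 5 ATPases and PSMD2, another scaffold, were not called, with log2 changes between -0.25 and 0.23. PSMC1 was called lower without control replicate 2 (log2 change -0.33, edgeR adjusted p = 0.0287), and PSMD2 was called higher without control replicate 3 (log2 change 0.32). For PSMC1, 13 rows named as its pseudogenes held 3239 counts, 25.5% of the gene's own, so its reads may be split among near copies.

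None of the 8 lid genes with a PSMD name was called, beside 27.4% of all tested genes. At an unadjusted p under 0.05 edgeR called 0 and DESeq2 0, and DESeq2 called 0 after adjustment. The group median log2 change was 0.10, and it ranged from 0.04 to 0.18 over the other settings. PSMD11, which clamps the lid to the core, had 38.8, 41.9 and 46.9 FPKM in shRNA libraries, against 35.6, 36.7 and 32.1 FPKM in control libraries (log2 change 0.22 ± 0.09 SE, edgeR adjusted p = 0.152). At the other end, PSMD3, a structural subunit, had 111, 106 and 108 FPKM in shRNA libraries, against 108, 92.9 and 116 FPKM in control libraries (log2 change -0.03 ± 0.12 SE, edgeR adjusted p = 0.846). PSMD14, the enzyme that strips ubiquitin from substrates, had a log2 change of 0.01 (edgeR adjusted p = 0.965). PSMD11 and PSMD13 had groups that did not overlap (2 of 8, beside 42.6% of all tested genes), and the other 6 lid genes overlapped. SHFM1, the smallest lid subunit, does not carry a PSMD name and is among the other ubiquitin-proteasome genes.

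Factors that assemble the proteasome and leave before it is mature held 1 increase and 1 decrease among 7 tested genes. This share of 28.6% called was close to the 27.4% of all tested genes. PSMG1, a chaperone of alpha-ring assembly, had 18, 21.8 and 26.6 FPKM in shRNA libraries, against 34.8, 31.3 and 31.3 FPKM in control libraries. The groups were apart, and the decrease was 1.54-fold (log2 change -0.62 ± 0.18 SE, edgeR adjusted p = 0.00781), lost without control replicate 1 (edgeR adjusted p = 0.0564). Its partner PSMG2 had 24.3 ± 1.4 FPKM in shRNA libraries and 27.9 ± 4.7 FPKM in control libraries (SD, n = 3 each; log2 change -0.27, edgeR adjusted p = 0.159). PSMD5, a chaperone of the base, had 20.2, 22.7 and 23.9 FPKM in shRNA libraries, against 15.6, 19.0 and 12.5 FPKM in control libraries. It was 1.36-fold higher (log2 change 0.44 ± 0.17 SE, edgeR adjusted p = 0.0368), and the call was lost on leaving out any of shRNA replicates 2 and 3 and control replicates 1 and 3 (edgeR adjusted p of up to 0.121). PSMD5-AS1, on the opposite strand of PSMD5, had a log2 change of 0.39 and was not called (edgeR adjusted p = 0.0847). PSMG3, PSMG4, PSMD9 and PSMD10 were not called, with log2 changes between -0.37 and 0.11. PSMG2 was called lower without control replicate 3 (log2 change -0.38), and PSMG4 without control replicate 2 (log2 change -0.49).

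The other genes of the ubiquitin-proteasome pathway were taken from a list of 33 tested genes, of which 4 were called higher and 7 lower, with a median log2 change of -0.08. Without shRNA replicate 2 or without control replicate 1 the called genes numbered 6. Their shares (12.1% higher and 21.2% lower) stand beside backgrounds of 13.8% and 13.7%. UBQLN2, a shuttle that carries ubiquitinated proteins to the proteasome, had 11.1 ± 1.2 FPKM in shRNA libraries and 23.6 ± 3.1 FPKM in control libraries, 2.24-fold lower (SD, n = 3 each; edgeR adjusted p = 9.68e-05). USP14, the deubiquitinase that docks on the base, had 13.0 ± 1.9 FPKM in shRNA libraries and 26.1 ± 4.4 FPKM in control libraries, 2.10-fold lower (edgeR adjusted p = 0.000243). SHFM1, the lid subunit, was 1.64-fold lower, with 5.28, 5.34 and 5.70 FPKM in shRNA libraries, against 9.33, 7.44 and 8.73 FPKM in control libraries (edgeR adjusted p = 0.00196). Both USP14 and SHFM1 act on the regulatory particle, and their decreases were larger than that of any base or lid gene with a PSM name. UBE3C, a ubiquitin ligase that binds the proteasome, was 1.44-fold higher, at 16.2 ± 0.5 FPKM in shRNA libraries and 10.8 ± 1.5 FPKM in control libraries (edgeR adjusted p = 0.00485). NFE2L2, the transcription factor of the antioxidant response, had a log2 change of -0.56 (edgeR adjusted p = 0.00622), and OAZ1, the antizyme that delivers ornithine decarboxylase to the proteasome, one of -0.50 (edgeR adjusted p = 0.00637). NFE2L1, the factor that raises proteasome genes when the proteasome is inhibited, and POMP, which helps close the core, were not called (log2 changes of 0.06 and -0.28, edgeR adjusted p = 0.722 and 0.119), and both were named after their values were seen.

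Genes that share interferon control or the peptide-loading route with the immunoproteasome were taken from a list that is reported in part. Of the 15 tested genes reported here, 7 (46.7%) were called lower, beside 13.7% of all tested genes, with a median log2 change of -0.25 over the 15. This count does not describe the direction of the whole list. HLA-B, a class I heavy chain, was lower by a log2 change of -1.17 (edgeR adjusted p = 0.000407), with the caution that reads of HLA genes can be split among near copies. B2M, the class I light chain, had 281 ± 22 FPKM in shRNA libraries and 366 ± 6 FPKM in control libraries (SD, n = 3 each; log2 change -0.45, edgeR adjusted p = 0.00444). IRF2, an interferon regulatory factor, and IFNGR2, a chain of the interferon-gamma receptor, were lower as well, by log2 changes of -0.88 and -0.60 (edgeR adjusted p = 0.0017 and 0.0036). TAP1, the peptide transporter gene whose span overlaps that of PSMB9 on the opposite strand, was named after its values were seen. It had 26.2, 22.7 and 18 FPKM in shRNA libraries, against 20.6, 21.6 and 24.1 FPKM in control libraries, and its groups overlapped (log2 change -0.06 ± 0.17 SE, edgeR adjusted p = 0.792). IRF1, likewise named afterwards, had a log2 change of 0.23 and was not called (edgeR adjusted p = 0.26).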

How the data were processed

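RNA of 6 SKOV3 libraries was sequenced after 13 PCR cycles. Per the labels' protocols, poly(A) selection or rRNA removal preceded random priming, without saying which, and no strand setting is stated. The deposited counts are whole-number reads per gene. The authors' deposited FPKM values follow from those counts: dividing by exonic length and by the library's summed counts gave 100% of them within 0.0051. Tools in the submitters' processing notes are HTSeq 0.6.1, DESeq2, cutadapt 1.9.1 and HISAT2 2.0.1. These notes give a mouse build, whereas the identifiers are human, and the sources used here do not settle the build of the authors' coordinates.

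Genes at 1 FPKM or more in any 3 libraries were fitted with edgeR 4.0.16 in R 4.3.3 (TMM scaling, quasi-likelihood F test), with Benjamini-Hochberg adjustment over all 12784 and calls under 0.05. DESeq2 1.42.0, limma 3.58.1 on log2(FPKM + 1) and log2(FPKM + 0.1), other scalings and filters, and leaving out each library were alternatives. Log2 changes are shRNA minus control, and their SE comes from the group means of log2 CPM (prior count 2). Fitted changes use TMM scaling and FPKM uses total counts, so they can differ in size and, for small changes such as PSMD3, in sign. The median log2 change over all tested genes was -0.013 with TMM and 0.057 with total counts. With total counts the calls of PSMB3, PSMC5 and PSMD4 were lost. Self-tests used simulated data. Values were named by library for called members changed at least 1.5-fold, for the exchangeable subunits and for members at the ends of their role group. Up to 6 called genes with the smallest p were named in each other list. The other called members, and PSMA5, PSMD14 and PSMG2, were named in addition. Promoters and sites came from RefSeq (GRCh38.p14) and GENCODE 29. The members and lists were chosen with earlier results of these data known. Some genes of the interferon and antigen-loading list are not reported here.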

Additional observations from a re-analysis of the deposited data

How the results depend on the processing

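Each tested member was refitted under 14 other settings (13 for PSMA2 and PSMG4, absent under the stricter filter), and no call changed direction. The 5 immunoproteasome genes were called lower, and none of the 8 lid genes with a PSMD name was called, under all of them. Leaving out 1 library at a time gave 1882 to 5050 called genes in all, 7 to 22 called members, 0 to 4 higher and 7 to 18 lower, 2 to 5 core alpha genes lower, and 6 to 16 other ubiquitin-proteasome genes called, each lowest without control replicate 1 (shared with shRNA replicate 2 for the last, and with shRNA replicates 2 and 3 for increases). The immunoproteasome median ran from -1.07 to -0.78, and the within-library ratios from -1.31 to -0.90 (PSMB8 to PSMB5), -1.22 to -0.82 (PSMB9 to PSMB6) and -0.95 to -0.62 (PSMB10 to PSMB7). With a minimum of 5 FPKM the core alpha median was -0.30, since PSMA2 was removed. PSMD2 was called higher under 5 of 14 settings. Without control replicate 2, PSMA7, PSMB4, PSMB6, PSMC1, PSME4 and PSMG4 were called in addition. Of all called genes 50.2% were higher, and 61.6% with total counts, 60.5% with limma on log2(FPKM + 1) and 60.7% on log2(FPKM + 0.1).

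Replicate numbers did not pair the libraries: deviations of same-numbered libraries correlated at -0.09, 0.02 and -0.31, and 0 of 6 libraries correlated best with its own number. With the replicate block, 12 members were called (2 higher, 10 lower), the losses being PSMB3, PSMC5, PSMD4 and PSME3. Counts of 2107 for PSMA2 and 2388 for PSMB9 over the 6 libraries limit their precision, and intervals here cover the spread between libraries only.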
